A study of Mus musculus with 6 samples.

Results

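The core autophagosome machinery was taken as 32 named mouse genes for starting, building, lipidating and fusing the autophagosome, leaving out cargo receptors and lysosomal genes. All 32 were rows of the deposited table of 13341 genes, and all 32 passed the filter on low values. The cells were hepatic stellate cells of mouse liver, the mesenchymal cells that lie around liver sinusoids, grown under basal conditions for 4 days in DMEM with 10% fetal bovine serum. Of the 6 libraries, 3 carried the genotype label wild type and 3 the label Nbr1 knock-out. The labels name no allele, strain, age or promoter, and do not say whether the biological replicates came from separate animals, so p-values measure the spread between these cultures. The study's title asks how NBR1 and p62 act on STING in these cells.

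Autophagy encloses cytoplasm in a double membrane that closes and fuses with the lysosome. The ULK kinase complex starts the process, a class III PI3-kinase complex marks the site with the lipid PI3P, ATG9 vesicles and ATG2 proteins supply membrane, and a conjugation cascade joins LC3 and GABARAP proteins (the ATG8 family) to it. NBR1, the product of the targeted gene, is a cargo receptor that binds ATG8 proteins. In stellate cells autophagy is known for the breakdown of lipid droplets during activation.

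A library held between 1508518 and 2383879 recovered reads. Values below are normalized counts, reads divided by a factor of each library, from the 3' end of transcripts, so a level does not grow with transcript length. Nbr1 itself stood at 204.1, 278 and 288.7 under the wild-type label and at 203.7, 188.2 and 175.6 under the other (log2 change -0.43, SE 0.18, adjusted p = 0.22). Reads of the 3' end do not check a deletion elsewhere in the gene. Sqstm1, which encodes the cargo receptor p62 and is widely expressed, lay between 10.9 and 24 in the wild-type label and between 644.6 and 859.1 in the knock-out label. The log2 change of Sqstm1 was 5.59 (limma, adjusted p = 0.000337). Groups are therefore named by their labels throughout, and each direction rests on them. Every difference between the labels runs along with that of Sqstm1, so the parts of Nbr1 and Sqstm1 in it cannot be told apart. Of 12 stellate and myofibroblast markers 8 had rows, summing to between 5330 and 6568 in the wild-type label and between 12090 and 13080 in the knock-out label, while Des, Lrat, Reln and Ngfr had none. Of 6 hepatocyte markers 5 had rows, summing to between 37 and 49.9 in the wild-type label and between 17.2 and 51 in the knock-out label. Of 8 leukocyte markers only Cd68 and Csf1r had rows, summing to between 6.36 and 14.7 against between 6.88 and 14.2. Of 6 endothelial markers only Kdr had a row, at between 3.36 and 5.45 against between 6.02 and 8.31, without overlap. The 3 cholangiocyte markers with rows (Krt19, Krt7 and Sox9, while Epcam had none) summed to between 68.9 and 74.5 against between 512.4 and 537.5, and 4 mesothelial markers to between 592.9 and 665.7 against between 363 and 469.3. The part of these shifts in the results below was not tested, and in bulk RNA fewer cells of a type and less RNA per cell cannot be told apart.

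The libraries were also divided into 2 sets by their deviations from the group means. Deviations from a mean of 3 libraries depend on each other, so this division could not show whether the libraries form sets. Set A held wild-type library 1 with knock-out libraries 1 and 3, and set B held wild-type libraries 2 and 3 with knock-out library 2. Each label difference within a set therefore rests on 1 library of one label. Over the log2 values of all tested genes wild-type library 1 correlated at r = 0.888 and 0.875 with knock-out libraries 3 and 1. With wild-type libraries 2 and 3, which correlated at 0.984 with each other, it reached 0.857 and 0.856. Wild-type library 1 had the fewest reads and knock-out library 3 the next fewest (1648800). The part of depth in the sets was not tested. Since these sets were drawn from the same values, fits that use them describe the data and are no independent check.

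Few messages of the autophagosome machinery passed the test between the labels, as was so for all tested genes. With 3 libraries per label, a missing call does not show equal levels. Wipi1, which encodes a PI3P-binding protein of the forming autophagosome, was the only member to pass the test, and its mean under the knock-out label was 2.08 times that under the wild-type label. Gabarapl1, an ATG8 family gene, was 2.18-fold lower by mean, and Atg12, which encodes a ubiquitin-like conjugation protein, was 1.73-fold higher by mean. Both fell just short of the threshold, with adjusted p = 0.0527 and 0.0534. In numbers, 1 of 32 members rose and 0 fell (limma, adjusted p under 0.05), where 4.67% of all 10540 tested genes rose, 2.25% fell and 6.92% passed in either direction. Without adjustment 6 members (18.8%) had a p under 0.05, against 22.6% of all tested genes. The edgeR quasi-likelihood test called Wipi1 higher and Gabarapl1 lower (7.27% of all tested genes called), and DESeq2 called these and Atg12 (9.02% called).

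The members' median log2 change was 0.14, from -1.08 for Gabarapl1 to 1.06 for Wipi1, and the median over all tested genes was -0.01. The median size of a change, whatever its sign, was 0.26 on the log2 scale against 0.32 over all tested genes. Only Wipi1, Gabarapl1, Atg12 and Atg9a differed by more than 1.5-fold on the fitted scale, or 12.5% of members against 24.7% of tested genes. For 21 of the 32 members the 95% interval of the difference lay within 2-fold in both directions, and for 11 it reached past 2-fold in at least 1 direction. In 7 members the 3 values of one label lay apart from the 3 of the other, 21.9% of the list, against 30.1% of all tested genes.

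**Figure D1:**
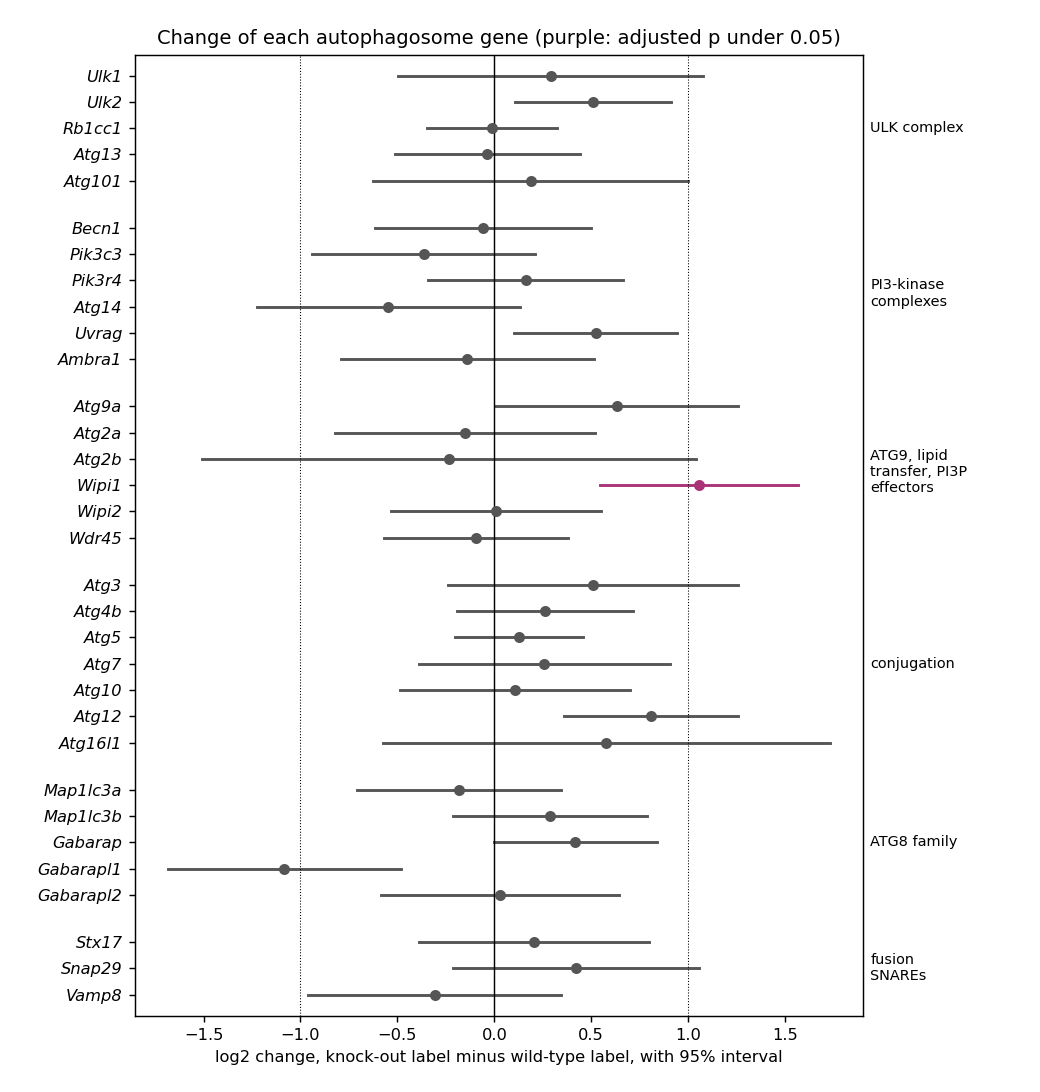
Fitted log2 change of each of the 32 genes (knock-out label minus wild-type label, points) with its 95% interval (lines), grouped by role, with dotted lines at 2-fold. Only Wipi1, in purple, had an adjusted p under 0.05, and Gabarapl1 had the lowest change, at -1.08.

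The levels spanned a wide range. Map1lc3b, which encodes LC3B, had the highest mean in both labels, 546.1 ± 94.98 and 672.0 ± 150.9 (SD, n = 3 each), and Atg10, an E2-like enzyme gene, the lowest, 16.5 ± 1.8 and 17.9 ± 2.5. By mean in the wild-type label Map1lc3b was followed by Gabarapl1, Gabarap and Rb1cc1, and neighbours in this order overlapped in their range over libraries. Wipi1 ranked 30th of 32 in that label. The fewest reads behind any value were 6, for Atg16l1 in wild-type library 1, and the most were 741.

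**Figure D2:**
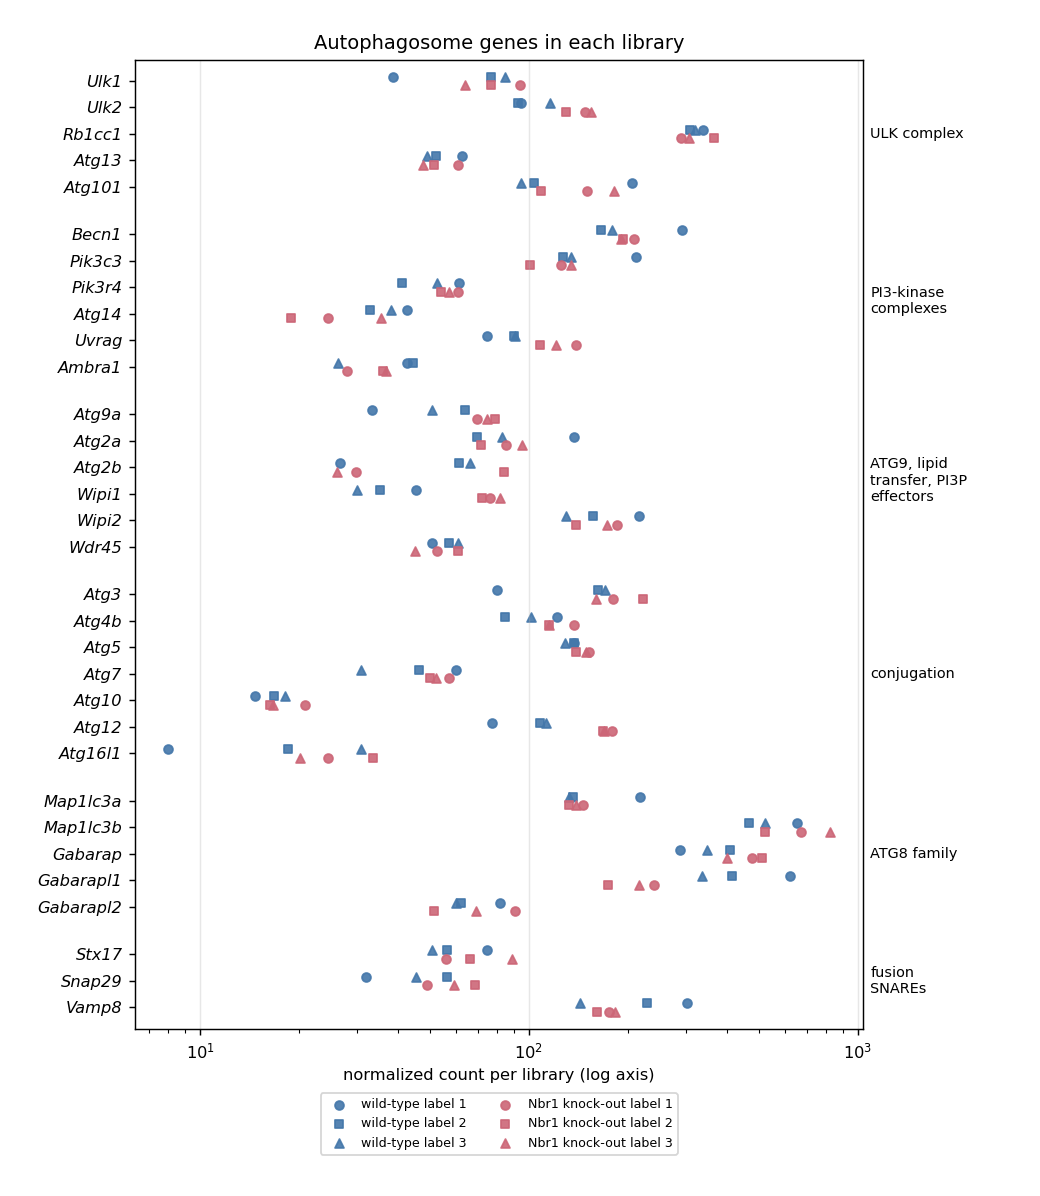
Normalized count (log axis) of each of the 32 genes in each library, with wild-type labels in blue, knock-out labels in red and the replicate number as the marker shape. The red points of Wipi1 and Atg12 lie above all blue ones and those of Gabarapl1 below, while most other genes overlap.

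Among the genes that read PI3P or supply membrane, Wipi1 stood apart. Under the wild-type label its normalized counts were 45.4, 35.3 and 29.96, and under the knock-out label 76.0, 72.2 and 81.9. The lowest knock-out value was thus well above the highest wild-type value. The means were 36.9 ± 7.8 and 76.7 ± 4.9 (log2 change 1.06, SE 0.22, 95% interval 0.54 to 1.57, adjusted p = 0.0344). The difference was 0.79 on the log2 scale within set A and 1.13 within set B. The call held without wild-type library 1 (adjusted p = 0.0068) but not without any other library (adjusted p = 0.122 and 0.115 without wild-type library 2 or 3, and 0.165, 0.0958 and 0.159 without knock-out library 1, 2 or 3). Over these 6 fits its log2 change stayed between 0.92 and 1.21. The fit without wild-type library 1 also called the most of all tested genes among these 6, so its calls are not particular to Wipi1.

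The 250 bases before the start of Wipi1 and of Gabarapl1 are shown because these members had the largest differences, in opposite directions. They come from RefSeq on GRCm38.p6, at chr11:109611390-109611639 on the minus strand and chr6:129532942-129533191 on the plus strand, with capitals on the GC box letters GGGCGG of either strand.
Wipi1: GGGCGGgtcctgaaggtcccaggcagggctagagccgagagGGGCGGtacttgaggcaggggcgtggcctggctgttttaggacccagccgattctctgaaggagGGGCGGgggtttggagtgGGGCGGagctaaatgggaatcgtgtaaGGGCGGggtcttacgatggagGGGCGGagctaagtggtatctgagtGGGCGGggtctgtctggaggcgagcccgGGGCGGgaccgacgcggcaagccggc
Gabarapl1: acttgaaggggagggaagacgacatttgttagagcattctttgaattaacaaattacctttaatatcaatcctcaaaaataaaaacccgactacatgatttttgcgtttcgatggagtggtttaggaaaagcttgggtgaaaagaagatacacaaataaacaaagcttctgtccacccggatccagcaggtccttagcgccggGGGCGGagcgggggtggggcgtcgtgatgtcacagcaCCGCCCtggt
The Wipi1 stretch held 8 GC boxes, a number reached by 0.155% of the 32851 promoter stretches of that length in the table and by none of the other members with a stretch there. In the Gabarapl1 stretch there were 2, a number reached by 16.7% of stretches. The stretches were 67.2% and 46.8% G or C. The compared stretches were not limited to tested genes and not matched for G and C content. A match of letters is a description and not a binding site. Whether the GC boxes bear on the difference of Wipi1 was not tested.

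The other genes of this step did not pass. Atg9a, which encodes the membrane-embedded lipid scramblase of ATG9 vesicles, had 33.4, 63.8 and 50.8 in the wild-type label and 69.7, 79.1 and 74.8 in the knock-out label, with no overlap. Its log2 change was 0.63 (SE 0.26, adjusted p = 0.219). Atg2b, which encodes a lipid transfer protein, followed the library sets instead, with 26.7, 29.9 and 26.1 in set A and 61.3, 66.3 and 84.2 in set B. Its label difference of -0.23 had the widest interval of the list, from -1.51 to 1.04. Atg2a, its paralog, ran the other way between the sets, at 137.4, 85.1 and 94.9 in set A and 69.7, 82.6 and 71.3 in set B. Wipi2, the paralog of Wipi1 that recruits the conjugation machinery, had means of 167.4 ± 44.2 and 165.7 ± 23.6, a log2 change of 0.01 (95% interval -0.54 to 0.55). Wdr45, which encodes WIPI4, had 56.2 ± 5.1 and 52.9 ± 8.0 (interval -0.57 to 0.38). The read-through models Gm29253 and Gm45208 share the transcript ends of Atg9a and Wdr45, so how their reads were assigned is uncertain. Whether Wipi1 differed from Wipi2 in its change was not tested.

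In the ATG8 family, 0 of 5 genes passed the limma test and 1, Gabarapl1, had a p under 0.05 before adjustment. Gabarapl1 had 621.7, 413.2 and 336.8 in the wild-type label and 239.9, 174.5 and 216.0 in the knock-out label. No knock-out value reached the lowest wild-type value, and wild-type library 1 lay well above the other two. The log2 change was -1.08 (SE 0.25, 95% interval -1.68 to -0.48, adjusted p = 0.0527), with -1.45 within set A and -1.09 within set B. Without wild-type library 1 the log2 change was -0.84 and passed (adjusted p = 0.0179), in the leave-out fit that also called the most of all tested genes. Leaving out any other single library gave no call (adjusted p up to 0.175). Gabarap, a close relative, had 288.2, 407.3 and 347.7 against 477.1, 510.5 and 399.9, and the groups overlapped only in the lowest knock-out and highest wild-type value (log2 change 0.42, SE 0.18, adjusted p = 0.224). Map1lc3b had a log2 change of 0.29 (interval -0.21 to 0.79), Map1lc3a, the LC3A gene, of -0.18 (interval -0.71 to 0.35) and Gabarapl2 of 0.03 (interval -0.59 to 0.64). In the annotation the opposite-strand gene Zcchc14 and the same-strand model Gm20388 overlap the end of Map1lc3b, and since the use of strand in counting is not given, its reads are uncertain.

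The summed level of the 5 ATG8 genes was 1859.8, 1484.8 and 1398.2 in the wild-type label and 1624, 1390.6 and 1647 in the knock-out label, so the ranges overlapped. By gene, Gabarapl1 gave 33.4%, 27.8% and 24.1% of the sum in the wild-type label and 14.8%, 12.5% and 13.1% in the knock-out label. Map1lc3b gave 34.6% ± 3.0 and 42.9% ± 6.4, Gabarap 22.6% ± 6.3 and 30.1% ± 6.2, Map1lc3a 10.1% ± 1.4 and 9.0% ± 0.5, and Gabarapl2 4.3% ± 0.1 and 4.5% ± 1.0 (SD, n = 3 each). The groups stood apart in the share of Gabarapl1 and, by a narrow margin, of Map1lc3b, and overlapped in those of Gabarap, Map1lc3a and Gabarapl2. These shares are descriptions and were not tested.

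**Figure D3:**
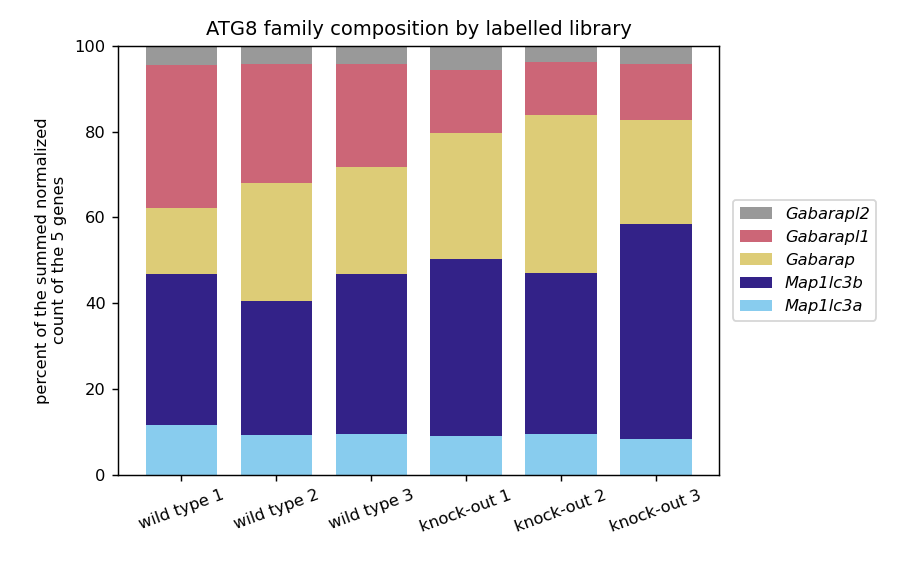
Percent of the summed normalized count of 5 ATG8 family genes taken by each gene (stacked bars) in each labelled library. The Gabarapl1 segment takes between 24.1% and 33.4% in the wild-type labels and between 12.5% and 14.8% in the knock-out labels.

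All 7 conjugation genes had a positive log2 change in the main fit (0.11 to 0.81), against 5159 of all 10540 tested genes. Not every sign held, with Atg5 at -0.007 with chromosome medians removed and Atg10 at -0.045 with quantile normalization. Without wild-type library 1 the log2 change of Atg3 was 0.16 and that of Atg16l1 was 0.09. Of these 7 genes 0 passed the limma test. With edgeR 0 passed, with DESeq2 1 did, and 1 had a limma p under 0.05 before adjustment, in both cases Atg12. Atg12 had 77.4, 108.3 and 112.6 in the wild-type label and 179.2, 168.5 and 169.7 in the knock-out label. The knock-out values lay close together and above every wild-type value. The means were 99.4 ± 19.2 and 172.5 ± 5.9 (log2 change 0.81, SE 0.19, 95% interval 0.36 to 1.26, adjusted p = 0.0534), with 1.16 within set A and 0.60 within set B. Without wild-type library 1 the log2 change was 0.64 and passed (adjusted p = 0.018), again in the leave-out fit with the most calls over all tested genes. Leaving out any other single library gave no call (adjusted p up to 0.235). Atg5, which encodes the partner of ATG12, had 137.4, 136.9 and 128.9 against 152.1, 139.2 and 149.5. These groups did not overlap, yet the log2 change was only 0.13 (interval -0.20 to 0.46, adjusted p = 0.661).

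Atg16l1, whose product completes the ATG12-ATG5 complex at the membrane, had 8.0, 18.5 and 30.9 against 24.4, 33.5 and 20.2. The groups overlapped, and the wide spread in the wild-type label left an interval from -0.58 to 1.73. Atg3, which encodes the E2-like enzyme of ATG8 proteins, had 80.0, 162.1 and 169.8 against 180.1, 222.6 and 160.2 (log2 change 0.51, SE 0.31, adjusted p = 0.407), and wild-type library 1 was again the low one. Atg7, the E1-like enzyme gene, had a log2 change of 0.26 (interval -0.39 to 0.91), Atg4b, the ATG8 protease gene, of 0.26 (interval -0.19 to 0.71) and Atg10 of 0.11 (interval -0.49 to 0.70).

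Of the 5 ULK complex genes, 0 passed in any of limma, edgeR and DESeq2, and the unadjusted limma p was under 0.05 for 1. That gene was Ulk2, a kinase gene, with 94.7, 92.4 and 116.2 against 147.6, 129.8 and 154.3. Its groups did not overlap (log2 change 0.51, SE 0.17, adjusted p = 0.135). Ulk1, the paralogous kinase gene, had 38.7, 76.4 and 84.4 against 94.1, 76.5 and 64.1, with overlapping groups and a low value in wild-type library 1. Rb1cc1, which encodes the scaffold FIP200, stood at 322.5 ± 15.4 and 320.8 ± 38.7 (interval -0.35 to 0.32). Its transcript ends share 14.8% of their 30-base words with Gm13961, so some of its reads are uncertain. Atg13, the adaptor gene, had a log2 change of -0.04 (interval -0.51 to 0.44). Atg101, its binding partner, had 205.5, 150.3 and 181.5 in set A and 103.3, 94.4 and 109.2 in set B, with a label difference of 0.19 (SE 0.34).

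Of the 6 genes of the PI3-kinase complexes and their regulator Ambra1, 0 passed in any of these tests, and 1 had p under 0.05 before adjustment. It was Uvrag, which encodes a subunit of the complex that acts on endosomes, with 74.7, 89.9 and 90.8 against 139.4, 108.3 and 121.0. Every knock-out value was above every wild-type value (log2 change 0.52, SE 0.18, adjusted p = 0.142). Atg14, whose product takes the place of UVRAG in the autophagosome-forming complex, had 42.7, 32.8 and 38.1 against 24.4, 18.9 and 35.6. Here the groups overlapped through knock-out library 3 (log2 change -0.55, SE 0.29, adjusted p = 0.328). The lipid kinase gene Pik3c3 had 212.1, 126.8 and 134.4 against 124.9, 100.6 and 134.1 (log2 change -0.36, SE 0.24, adjusted p = 0.444). Becn1, the Beclin 1 gene, had 292.2, 165.4 and 178.9 against 209.1, 193.4 and 189.9, a log2 change of -0.06 with an interval from -0.61 to 0.50. Its end is overlapped by the opposite-strand gene Cntd1, so its reads are uncertain as well. Pik3r4, which encodes the kinase's regulatory subunit, and Ambra1 had log2 changes of 0.16 and -0.14 (intervals -0.34 to 0.66 and -0.79 to 0.52).

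Of the 3 SNARE genes for fusion with the lysosome, 0 passed in limma, edgeR or DESeq2, and before adjustment 0 had a p under 0.05. Stx17, the autophagosomal syntaxin gene, had 60.6 ± 12.5 and 70.4 ± 16.8 (log2 change 0.21, interval -0.39 to 0.80). Snap29 had 44.6 ± 12.1 and 59.0 ± 9.9 (log2 change 0.42, interval -0.22 to 1.05). Vamp8, the lysosomal partner, had 302.9, 228.4 and 142.5 against 175.6, 161.6 and 182.7, so its wild-type values spread over 2.12-fold and enclosed those of the knock-out label.

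Differences between the library sets, and calls with the set as a term, are given beside those of all genes. They are descriptions, since the sets were drawn from the same values. For 17 of 32 members (53.1%, against 56.2% of all tested genes) the difference between sets was larger than that between labels, on the log2 scale of a fit with both terms. The sets did not overlap for 10 members (31.2%, against 40% of all tested genes). Of these, 2 (Atg2b and Wdr45) were higher in set B, and 8 were lower there (Atg101, Pik3r4, Atg2a, Wipi2, Atg7, Map1lc3a, Map1lc3b and Gabarapl2). Within the sets, 13 members had a positive label difference in both (40.6%, against 33.7% of all tested genes), 8 a negative one in both (25%, against 34.7%) and 11 opposite signs (34.4%, against 31.6%). With the set as a term, 9 members passed, 28.1% of the list, against 26.5% of all tested genes. They were Wipi1, Atg12, Atg9a, Atg3, Gabarap, Ulk2 and Uvrag, higher, and Gabarapl1 and Pik3c3, lower, with adjusted p from 0.000229 for Gabarapl1 to 0.0436 for Uvrag. As the sets were drawn from deviations within the labels, the term takes up spread, and these adjusted p-values can come out too small.

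**Figure D4:**
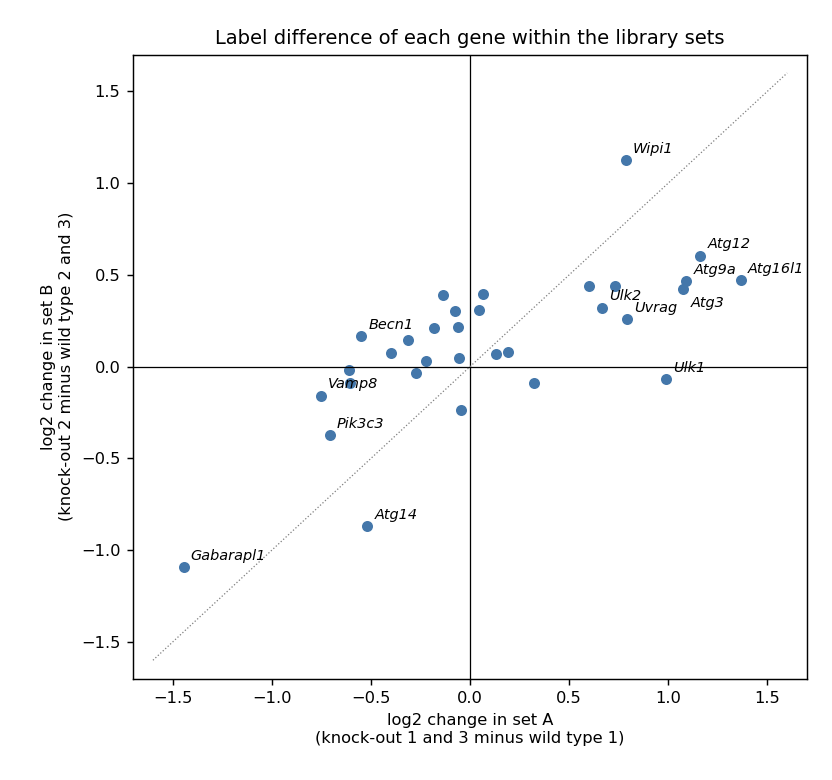
Log2 difference between labels of each of the 32 genes within set A (x axis) and within set B (y axis), with the line of equal values dotted. Wipi1 lies at 0.79 and 1.13 and Gabarapl1 at -1.45 and -1.09, while 11 genes lie in quadrants of opposite sign.

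The genes of some chromosomes had a median change away from 0, furthest at -0.45 for chromosome 3, which holds no member. Several members lay on others of these chromosomes. The median log2 change was 0.37 over 266 tested genes of chromosome 18, which holds Atg12 and Pik3c3, and 0.40 over 335 genes of chromosome 16, which holds Atg3 and Snap29. It was -0.25 over 528 genes of chromosome 6, which holds Gabarapl1, Atg7 and Vamp8. Over 879 genes of chromosome 11, which holds Wipi1 and also the targeted gene Nbr1, it was -0.02. A median of a whole chromosome does not address a difference local to the targeted gene, which was not tested. With each chromosome's median removed, the log2 change of Atg12 was 0.44 (adjusted p = 0.283), of Gabarapl1 -0.83 (adjusted p = 0.124), of Atg3 0.11 and of Snap29 0.02. That of Pik3c3 became -0.73 (adjusted p = 0.157), and that of Wipi1 was 1.07 (adjusted p = 0.0347), where 6.09% of all tested genes passed. Other medians were 0.32 for chromosome 12 (Atg2b), -0.26 for 14 (Atg14), -0.22 for 13 (Atg10) and 0.20 for 8 (Map1lc3b and Gabarapl2). With medians removed the log2 change was -0.55 for Atg2b, -0.29 for Atg14 and 0.32 for Atg10. It was 0.08 for Map1lc3b and -0.18 for Gabarapl2. What underlies the chromosome medians was not tested.

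Other genes of the pathway gave no calls. Of 28 accessory genes (paralogs, membrane proteins and tethers of autophagosome formation and fusion) 27 had rows and were tested, and 0 passed in limma, edgeR or DESeq2, while 3 (11.1%) had p under 0.05 in limma before adjustment. Over all tested genes the limma shares were 6.92% and 22.6%. Rubcn, which encodes an inhibitor of the UVRAG complex, had means of 69.5 ± 24.8 and 114.1 ± 20.8 (log2 change 0.75, SE 0.29, adjusted p = 0.185). Tecpr1, whose product takes part in fusion with the lysosome, had 63.9 ± 9.6 and 88.3 ± 4.3 (log2 change 0.47, SE 0.18, adjusted p = 0.193). Vps18, a gene of the HOPS tether, had 31.3 ± 14.9 and 11.2 ± 7.7 (log2 change -1.47, SE 0.59, adjusted p = 0.201).

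Of 18 upstream regulators in the mTOR, AMPK and FOXO pathways 16 were tested, and 0 passed in limma, edgeR or DESeq2, while before adjustment 1 (6.25%) had p under 0.05 in limma. With the library set as a term 8 of the 43 tested genes of these lists passed (18.6%, against 26.5% of all tested genes). Tsc1, which encodes a brake on mTOR complex 1, had 105.8 ± 26.5 and 67.1 ± 7.6 (log2 change -0.63, SE 0.23, adjusted p = 0.168). Sesn3, a sestrin gene, had 53.8 ± 19.0 and 86.3 ± 19.1 (log2 change 0.72, SE 0.33, adjusted p = 0.256), and Akt1s1, which encodes the mTOR inhibitor PRAS40, had 22.3 ± 8.4 and 13.5 ± 0.9 (log2 change -0.63, SE 0.32, adjusted p = 0.305). Mtor itself had a log2 change of 0.11 (interval -0.37 to 0.58). Prkaa2 and Sesn2 were below the filter, with means of 3.1 and 10.3 for Prkaa2 and of 4.3 and 3.0 for Sesn2.

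Across processing choices Wipi1 passed in 10 of 18 alternatives, Gabarapl1 in 8 and Atg12 in 4, each with 1 direction throughout. The alternatives reuse the same libraries, and the label groups of these genes did not overlap. Leaving out 1 library therefore could not turn a direction, and these tallies are no independent support. The library set fit, chosen after seeing the data, is among them and called each of these genes. The log2 change ranged over the alternatives from 0.92 to 1.21 for Wipi1, from -1.28 to -0.83 for Gabarapl1 and from 0.44 to 0.91 for Atg12.

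**Figure D5:**
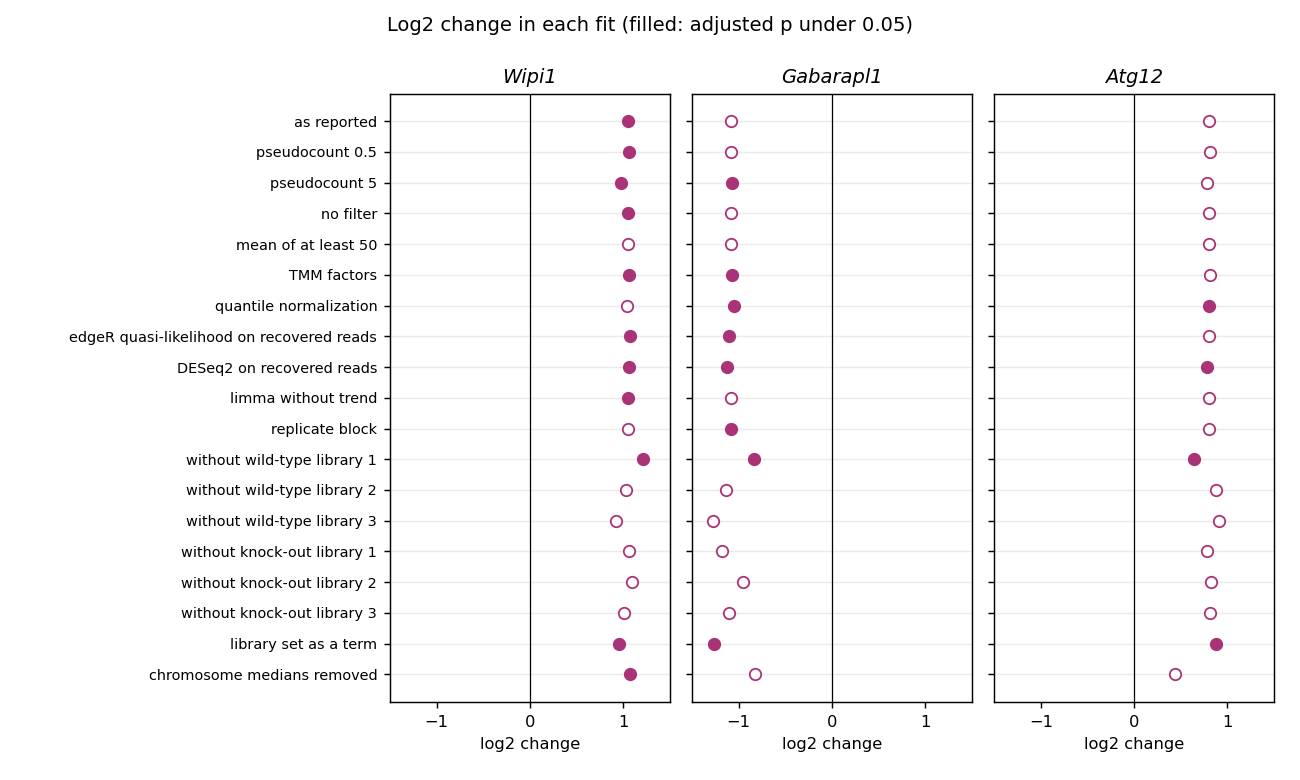
Log2 change (x axis) of Wipi1, Gabarapl1 and Atg12 as reported and in each of 18 alternative fits (rows), with filled points where the adjusted p was under 0.05. Every point of Wipi1 and Atg12 lies above 0 and every point of Gabarapl1 below, and the filled points number 11 for Wipi1, 8 for Gabarapl1 and 4 for Atg12.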

How the data were processed

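Per the labels' protocols, RNA was taken up in Trizol, cleaned on a Zymo column, and 200 ng went into Lexogen QuantSeq forward libraries of transcript ends, read as single 75-base reads on a NextSeq 500. The submitters' processing notes name DESeq2 and GRCm39. The aligner, annotation, and use of strand or molecular identifiers are not given in the sources used here. Deposited values are a normalized count signal, which the authors made by dividing each library's counts by 1 factor. All values (100%) were whole multiples of 1 read within 0.01, so reads were recovered, and the edgeR test on them called 766 genes.

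The filter kept genes reaching 10 in 3 or more libraries, and the test was limma 3.58.1 in R 4.3.3 (variance trend, two-sided, log2(value + 1), label as the only term), with Benjamini-Hochberg adjustment over 10540 genes at 0.05. Fold changes are ratios of group means. Log2 changes understate low genes. Alternatives, with edgeR 4.0.16 and DESeq2 1.42.0 among them, follow the report. The library set and chromosome fits were chosen after seeing the data. The fit was tested on simulated data. Members and lists were chosen with earlier results of these data known. The text names all members, and from each other list the 3 genes with the smallest p where none passed. Shared transcript ends (last 300 bases) and chromosomes came from GENCODE M21 and RefSeq on GRCm38, matched by symbol. RefSeq held a promoter for 26 of 32 members.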

Additional observations from a re-analysis of the deposited data

How the results depend on the processing

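Of the members, 1 was higher and 0 lower in the main test. With a minimum mean of 50, where 26 members were tested, 0 were higher. The lower count was 1 with a pseudocount of 5, with TMM factors, with quantile normalization and with edgeR, and DESeq2 gave 2 higher and 1 lower. With the library set as a term the counts were 7 and 2. Of all tested genes edgeR called 7.27%, DESeq2 9.02% and the fit with the set term 26.5%. For a pseudocount of 5, TMM factors and quantile normalization no such share is given, so those counts were not read against it. Leaving out 1 library at a time gave 0 to 2 higher and 0 to 1 lower.

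Over all tested genes, 492 were higher and 237 lower. These counts became 241 and 139 with a minimum mean of 50, where 6885 genes were tested, against 10540 in the main test. With the library set as a term they were 1503 and 1288. With 1 library left out they ranged from 146 to 1277 and from 54 to 951. Both upper ends came without wild-type library 1. Of the accessory and upstream genes, 0 passed in either direction in the main test, 4 and 4 with the set term, and 0 to 3 higher and 0 to 1 lower with 1 library left out. The members' median log2 change of 0.14 became 0.075 with chromosome medians removed and ranged from 0.050 to 0.21 with 1 library left out. The causes were not tested.

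Wipi1 lost its call with a minimum mean of 50 (adjusted p = 0.0513) and with quantile normalization (adjusted p = 0.0646). Gabarapl1 passed with a pseudocount of 5 (adjusted p = 0.0498), TMM factors (0.0485) and quantile normalization (0.0492), and Atg12 with quantile normalization (0.0406).

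Deviations from a mean of 3 libraries depend on each other, so the correlations below could not settle whether replicate numbers pair the libraries. Same-numbered libraries had deviations from their group means correlated at r = 0.447, 0.700 and -0.624 across genes, and wild-type library 1 was closest to knock-out library 3 (r = 0.698). With the replicate block 0 members were higher and 1 lower (Wipi1 adjusted p = 0.0769, Gabarapl1 0.0445), and over all genes the lower count was 127.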

Other observations

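Promoter letters of the members were counted in the 250 bases before the start of 26 of them, on both strands, beside 32851 stretches of that length in the RefSeq table for GRCm38.p6. The E-box CACGTG, the core of the element bound by the autophagy and lysosome regulator TFEB, stood in 3 stretches (Atg3, Atg5 and Atg7), 11.5% against 6.02% of all. The GC box GGGCGG stood in 15, 57.7% against 32.7%, and the letters CCAAT in 6, 23.1% against 33.8%. The forkhead letters GTAAACA were in 0 of 26 stretches and in 3.17% of all, and TGACNNNGC, the core of the antioxidant response element, in 2 (Atg13 and Ulk2), 7.69% against 10.2%. Some stretches in the table belong to the same gene, and no test was made. The 32851 stretches were not limited to the tested genes and not matched for G and C content, while all members passed the filter. Absence says only that the letters are not in this stretch.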
